A study of Mus musculus with 6 samples.

Results

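Interferon-stimulated genes are the transcripts that cells switch on when an interferon binds its receptor, and 39 of them were followed in mouse spleen γδ T cells with and without the transcription factor Eomes. They were selected by name from the scanner files, and where a gene had several probes the one with the highest mean signal stood for it. Of the 39 listed symbols, 38 were among the 30342 gene names on the array, and 37 of these were tested because their probe was well above background on at least 3 of the 6 arrays. Oas1g was not well above background on any array, and Trim30 was not a name in the scanner files.

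RNA came from Eomes-IRES-GFP mice (allele Eomestm1.1Twa) on a C57BL6 background, so both groups carry a reporter in which GFP is made from the Eomes transcript. Splenocytes were first depleted of cells bearing B220, CD4 or CD8β, and CD3+ TCRγδ+ TCRβ- cells were then divided by flow cytometry into GFP+ cells (here Eomes-positive) and GFP- cells (here Eomes-negative). The sort was done 3 independent times, each on pooled spleens of 4 to 6 mice, and gave 1 array per group and sort, 6 in all. The mice of sorts 1, 2 and 3 were 9, 9.5 and 7.5 weeks old, and 9 ng of RNA was labelled from sorts 1 and 2 against 4 ng from sort 3, after one round of amplification. The groups are thus defined by reporter fluorescence, and a pool, not a mouse, is the replicate.

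Type I interferons signal through the receptor chains Ifnar1 and Ifnar2 to a complex that contains Stat2 and Irf9 and binds the interferon-stimulated response element (ISRE) in target promoters. Interferon-γ, itself a product of T cells, signals through Ifngr1 and Ifngr2 and acts on promoters with a gamma-activated sequence (GAS). The induced proteins sense foreign RNA and DNA, degrade RNA, block viral entry, assembly or release, or, as the large GTPases do, attack the vacuoles of intracellular parasites and bacteria.

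Of the members, 27 had at least 1 promoter entry in RefSeq (GRCm38.p6). Within 250 bases before the transcript start, the ISRE core GAAANNGAAA, on either strand, was found in 13 of these 27 (48.1%), and in 3.46% of all 27025 genes of that table. The GAS motif TTCNNNGAA, which reads alike on both strands, was found in 7 of the 27 (25.9%) and in 8.13% of all genes. Iigp1, Mx1, Mx2, Oas2, Usp18, Rtp4, Zbp1, Parp9, Parp14, Gbp6 and Dhx58 had no entry. Printed here are the 120 bases before the start for Isg20 and Gbp3, which the tests below turn on, for Igtp, a GTPase with both motifs, and for Isg15 and Ifit1, typical targets of type I interferon. Motif matches are in capitals. They are matches of letters, not measured binding sites.
Isg20 (chr7:78913304-78913423, + strand, GAS in capitals): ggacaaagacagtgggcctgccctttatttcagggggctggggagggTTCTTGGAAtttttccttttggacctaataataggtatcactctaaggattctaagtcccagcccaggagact
Gbp3 (chr3:142559924-142560043, + strand, overlapping ISRE cores): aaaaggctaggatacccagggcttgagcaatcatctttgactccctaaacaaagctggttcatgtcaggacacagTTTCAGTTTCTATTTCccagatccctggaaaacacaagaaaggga
Igtp (chr11:58199436-58199555, + strand, GAS then ISRE core): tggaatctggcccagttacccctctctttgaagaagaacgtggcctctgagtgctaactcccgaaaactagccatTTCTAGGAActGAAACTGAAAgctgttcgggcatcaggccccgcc
Isg15 (chr4:156200819-156200938, - strand, overlapping ISRE cores): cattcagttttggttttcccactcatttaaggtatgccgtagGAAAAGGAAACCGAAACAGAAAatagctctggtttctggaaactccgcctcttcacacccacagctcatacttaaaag
Ifit1 (chr19:34640769-34640888, + strand, ISRE cores): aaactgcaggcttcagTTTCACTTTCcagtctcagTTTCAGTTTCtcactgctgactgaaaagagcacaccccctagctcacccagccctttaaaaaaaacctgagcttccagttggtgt
The promoters of Isg15 and Gbp3 held 3 and 2 overlapping ISRE cores, and that of Ifit1 held 2 separate ones. The other RefSeq promoter entries of Isg20 and Gbp3 held neither motif.

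The arrays measured 39429 probes with 4 spots each. The 75th percentile of intensity was 1581 to 1684 in sorts 1 and 2 and 534 to 549 in sort 3, and 47.7% to 56.6% of probes were well above background, so dim genes were measured less well in sort 3. Levels are given as log2 intensity relative to the array's 75th percentile, always in the order of sorts 1, 2 and 3. Eomes itself followed the labels, at 0.72, 0.88 and -1.14 in Eomes-negative cells and 5.31, 4.96 and 4.48 in Eomes-positive cells. All 8 T cell and γδ T cell markers on the array were detected on at least 1 array. Their levels summed to 277 to 359 times the 75th percentile in Eomes-negative and 259 to 326 in Eomes-positive cells. The brightest, Cd3d, Cd3g and Cd3e, differed by -0.06, -0.07 and -0.07. Of the 8 tested, 2 were called by limma, Tcrg-V6 (difference -4.02, adjusted p 0.0117) and Blk (-6.93, adjusted p 0.0242). Blk was well above background on 1 of 3 Eomes-positive arrays. Sox13 was lower in all 3 sorts but not called (-1.89, adjusted p 0.257). Of the αβ T cell markers, 4 of 5 were detected, summing to 6.37 to 9.24 in Eomes-negative and 2.31 to 2.55 in Eomes-positive cells. Cd40lg was not well above background on any array. Of the 4 tested, 1 was called, Cd8b1 (difference -2.86, limma adjusted p 0.0194). Cd4, Foxp3 and Tcra differed by -0.39, -1.09 and 0.18 and were not called. NK cell and ILC1 markers (6 of 6 detected) summed to 35.9 to 118 in Eomes-negative and 74.3 to 119 in Eomes-positive cells. Of the 5 tested, 2 were called higher in Eomes-positive cells, Klre1 (by 4.33, limma adjusted p 0.0044) and Klrb1c (by 1.66, adjusted p 0.0129). Ncr1, Klra8 and Gzma differed by 1.70, 1.64 and -0.14 and were not called. Khdc1a (-0.90) was too dim to be tested. Gzma was the brightest of the list on every array, so it weighs most in the sums. In these bulk samples, fewer cells of a type and less RNA per cell cannot be told apart.

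The members as a set lay at almost the same level in both groups. Of the 37 tested, 0 were called higher in Eomes-positive cells and 1, Isg20, was called lower, by limma with an adjusted p under 0.05 (of all 16413 genes tested, 1.2% were called higher and 1.57% lower). With the sort as a block, 1 member was called higher (Gbp3; 3.66% of all genes) and 2 lower (Isg20 and Iigp1; 4.33% of all genes). The median difference, Eomes-positive minus Eomes-negative, was 0.0086 on the log2 scale against -0.013 over all genes, and the medians within sorts 1, 2 and 3 were -0.08, -0.0004 and 0.04 (SD 0.06, n = 3 sorts). Within 0.5 of 0 on the log2 scale lay 29 of the 37 members (78.4%), as did 80.5% of all genes.

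Direction was less even than the calls. An unadjusted limma p under 0.05 was reached by 9 members (24.3%, against 12.2% of all genes), of which 8 were lower and 1 higher. In all 3 sorts 13 members were lower (35.1%, against 27.1% of all genes), 10 were higher (27%, against 25.3%), and 14 differed in sign between sorts. The arrays of the groups did not overlap for 9 members lower (9.68% of all genes were so) and 1 member higher (8.53% of all genes) in Eomes-positive cells. The plot of differences by sort shows where these genes fall among the roles.

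**Figure D1:**
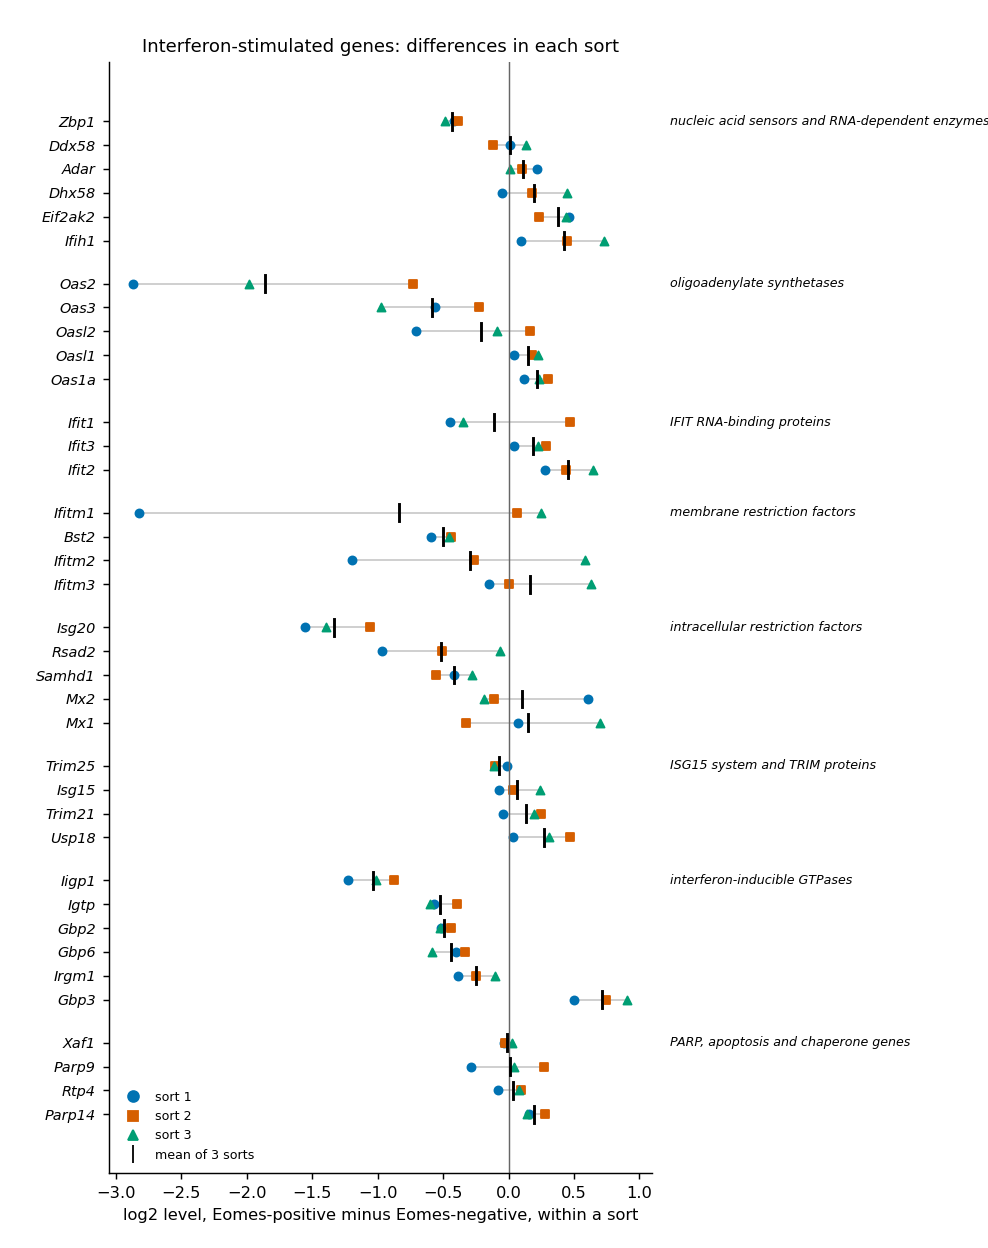
Difference in log2 level, Eomes-positive minus Eomes-negative, for the 37 tested members, grouped by role. Symbols are the 3 sorts, black bars their means, and grey lines their range; 29 of the 37 means lie within 0.5 of 0, Isg20 lies at -1.33, and Ifitm1 and Oas2 have wide spreads between sorts.

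Among the nucleic acid sensors and RNA-dependent enzymes, 0 of 6 members were called, and all 6 differences lay within 0.5 on the log2 scale (limma; 1 had an unadjusted p under 0.05). Ddx58, which encodes the RNA sensor RIG-I, stood at 3.29, 2.89 and 3.10 in Eomes-negative and 3.30, 2.78 and 3.24 in Eomes-positive cells. Its groups overlapped, with a difference of 0.01 (SE 0.21, 95% interval -0.50 to 0.52, limma adjusted p 0.997). The dimmer second probe of Ddx58 gave 0.55. Zbp1, a sensor of Z-form nucleic acids that can trigger cell death, stood at 3.08, 2.85 and 3.05 against 2.67, 2.47 and 2.57. Every Eomes-positive array was below every Eomes-negative array, by 0.43 on average (SE 0.14), but the gene did not pass the test (adjusted p 0.275, and 0.071 with the sort as a block). Adar, the enzyme that edits adenosine in double-stranded RNA, stood at 2.03, 1.65 and 1.67 against 2.25, 1.75 and 1.68. The difference of 0.11 (SE 0.22, adjusted p 0.968, and 0.502 with the sort as a block) is smaller than the spread between sorts. The remaining members were Ifih1 (the RNA sensor MDA5), with a difference of 0.42 and an SE of 0.26, Eif2ak2 (the kinase PKR), with 0.38 and 0.42, and Dhx58 (the RIG-I relative LGP2), with 0.19 and 0.25. Ifih1 and Eif2ak2 were higher in all 3 sorts, Dhx58 was not.

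The oligoadenylate synthetases make the second messenger that activates the ribonuclease RNase L. None of the 5 tested was called (limma; 1 had an unadjusted p under 0.05), and their differences ran from -1.86 to 0.22. Oas1a stood at 3.43, 2.88 and 2.42 in Eomes-negative and 3.54, 3.19 and 2.65 in Eomes-positive cells. The sorts differed more than the groups did: the difference between groups was 0.22 (SE 0.35, adjusted p 0.964), whereas the means of the sorts ran from 2.53 to 3.49. Oasl1, a relative without synthetase activity, stood at 1.13, 0.65 and 0.72 against 1.17, 0.83 and 0.95, and differed by 0.15 (SE 0.19, adjusted p 0.942). Oasl2 stood at -0.61, -1.28 and -0.61 against -1.31, -1.12 and -0.70, with overlapping groups and a difference of -0.21 (SE 0.27, adjusted p 0.938).

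Oas2, another synthetase, stood at -2.71, -3.32 and -3.77 in Eomes-negative cells and at -5.58, -4.04 and -5.75 in Eomes-positive cells, where only 1 of 3 arrays was well above background. The difference of -1.86 (SE 0.53) rests on signals near background, varied between sorts from -2.87 to -0.73, and was -0.78 with normexp background correction and quantile normalization together. The adjusted p was 0.199 in limma, 0.0915 with the sort and 0.0419 with the slide as a block. In the slide block the Eomes-positive array of sort 2, at -4.04, adds nothing, as it was alone on its slide. Oas3 had -0.59 (SE 0.34, adjusted p 0.651) and was lower in all 3 sorts.

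The IFIT proteins bind viral RNA, and their 3 genes showed 0 calls and 0 unadjusted limma p under 0.05. Ifit1 stood at 0.92, -0.25 and 0.63 in Eomes-negative and 0.47, 0.22 and 0.28 in Eomes-positive cells, with a difference of -0.11 (SE 0.32, adjusted p 0.986). It was lower in sorts 1 and 3 and higher in sort 2. Ifit2 stood at -0.29, -1.03 and -0.79 against -0.01, -0.59 and -0.14, a difference of 0.45 (SE 0.26, adjusted p 0.652). Ifit3 stood at 2.12, 1.38 and 1.57 against 2.16, 1.67 and 1.80, a difference of 0.19 (SE 0.25, adjusted p 0.946). Ifit2 and Ifit3 were higher in all 3 sorts, but their groups overlapped.

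Isg20, an RNA exonuclease that degrades single-stranded viral RNA, was the 1 member called without a block. It stood at 3.07, 3.05 and 2.73 in Eomes-negative cells and at 1.52, 2.0 and 1.34 in Eomes-positive cells. All 3 Eomes-positive arrays lay below all 3 Eomes-negative arrays, by 1.55, 1.06 and 1.39 within the sorts. The mean difference was -1.33 (SE 0.22, 95% interval -1.88 to -0.78), a 2.52-fold lower level, with a limma adjusted p of 0.0431, or 0.0176 with the sort as a block. Its probe lies at chr7:86065136-86065195 (mm9, + strand), and its second probe gave -1.25. Within slide 1, which held the Eomes-positive array of sort 1 and the Eomes-negative arrays of sorts 1 and 2, the difference was -1.54. Slide 3 held sort 3 alone, so its difference of -1.39 is that of sort 3 again. With the slide as a block the adjusted p was 0.024. The Eomes-positive array of sort 2 was alone on slide 2 and adds nothing to that comparison, so it is not independent support.

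The call on Isg20 was close to the threshold. Leaving out sorts 1, 2 and 3 in turn kept the difference at -1.22, -1.47 and -1.31 but gave adjusted p of 0.457, 0.199 and 0.16 in limma. Limma called 0 genes of the whole array without sort 1 or sort 2, so the loss there is not particular to Isg20. Without a single array the adjusted p ran from 0.0495, without the Eomes-positive array of sort 2, to 0.174, without that of sort 1. Every other single array left out, of either group, also ended the call. Quantile normalization gave 0.0518, and no filter on dim genes gave 0.12.

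The other intracellular restriction factors were not called. Samhd1, which depletes the nucleotides that viruses need for DNA synthesis, stood at 4.82, 4.79 and 4.95 in Eomes-negative and 4.40, 4.24 and 4.67 in Eomes-positive cells. Its groups did not overlap, and the difference was -0.42 (SE 0.16, limma adjusted p 0.38, unadjusted p 0.0439). With the sort as a block the adjusted p was 0.0955. The other probes of Samhd1 gave -0.36 and -0.96. Rsad2, which encodes the antiviral enzyme viperin, stood at 0.56, 0.42 and 0.46 against -0.40, -0.09 and 0.39. It too was lower in all 3 sorts, with a difference of -0.51 (SE 0.23, adjusted p 0.479) that ran from -0.96 to -0.07 between sorts. The dynamin-like GTPases Mx1 and Mx2 were dim on every array, at -3.37 to -1.92 and -4.59 to -3.29, and differed by 0.15 (SE 0.38) and 0.10 (SE 0.45).

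**Figure D2:**
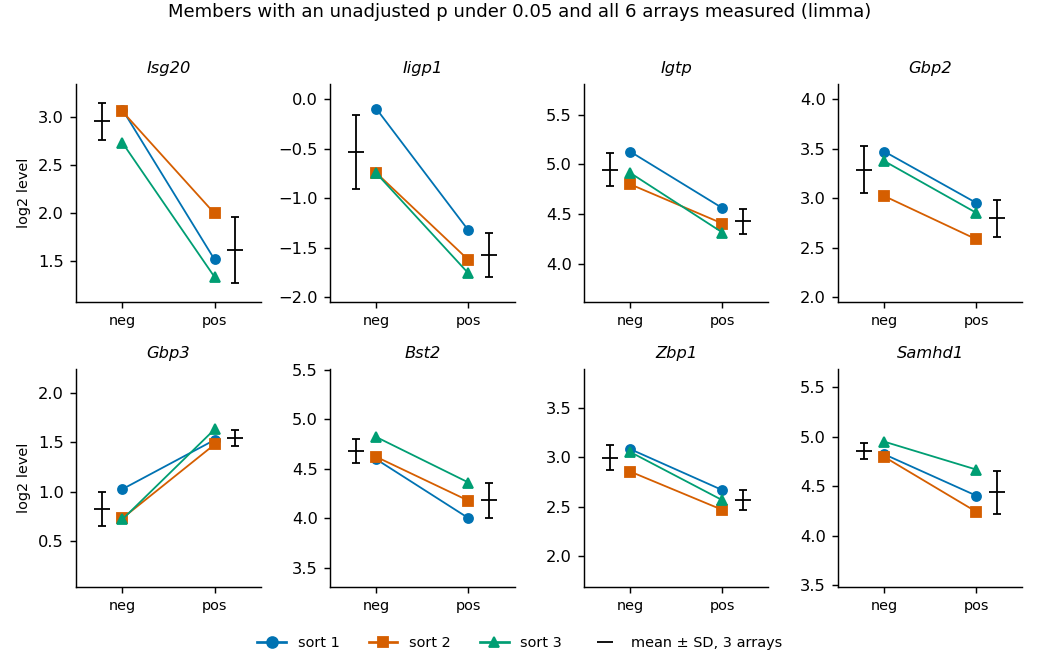
Log2 level on each array of the 8 members with an unadjusted limma p under 0.05 that were well above background on all 6 arrays, for Eomes-negative (neg) and Eomes-positive (pos) cells. Lines join the arrays of a sort, bars are mean ± SD of 3 arrays, and each panel has its own vertical range; Gbp3 is higher and the other 7 genes lower in every sort, and only Isg20 passed the test without a block.

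The interferon-inducible GTPases of the GBP and IRG families coat pathogen vacuoles and are typical targets of interferon-γ. Of the 6 members, 5 were lower in Eomes-positive cells in all 3 sorts and Gbp3 was higher in all 3. None was called without a block, 4 had an unadjusted limma p under 0.05 (3 lower, 1 higher; 12.2% of all genes had one), and with the sort as a block 1 was called lower (4.33% of all genes) and 1 higher (3.66%). The median difference of the 6 was -0.47, with -0.46, -0.37 and -0.55 in the 3 sorts (SD 0.09, n = 3 sorts).

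Iigp1, an effector GTPase that loads onto parasite vacuoles, stood at -0.10, -0.75 and -0.75 in Eomes-negative and -1.33, -1.62 and -1.76 in Eomes-positive cells. Its groups did not overlap, and the difference was -1.04 (SE 0.24, 95% interval -1.63 to -0.44), a 2.05-fold lower level. The limma adjusted p was 0.112 without and 0.0202 with the sort as a block, and the second probe gave -1.80. Within slide 1 the difference was -0.90, and slide 3 held sort 3 alone (-1.01).

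Gbp3, a guanylate-binding protein, ran the other way. It stood at 1.03, 0.73 and 0.72 in Eomes-negative and at 1.52, 1.48 and 1.63 in Eomes-positive cells, again without overlap. The difference was 0.72 (SE 0.15, 95% interval 0.34 to 1.09), a 1.64-fold higher level, with a limma adjusted p of 0.0868 without and 0.0472 with the sort as a block. Within slide 1 it was 0.64, and slide 3 held sort 3 alone (0.91).

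Gbp2, of the same family as Gbp3, stood at 3.47, 3.02 and 3.38 in Eomes-negative and 2.95, 2.59 and 2.85 in Eomes-positive cells. The arrays did not overlap, with a difference of -0.49 (SE 0.19) that was nearly the same in each sort (SD of the sort differences 0.05) but did not pass the test (adjusted p 0.367, and 0.0537 with the sort as a block). Both Gbp2 and Gbp3 have an ISRE core before their start, and they differed between the groups in opposite directions. Igtp, an IRG protein that controls the loading of the effector GTPases, stood at 5.13, 4.80 and 4.91 against 4.56, 4.40 and 4.31. All Eomes-positive arrays were below all Eomes-negative ones, by 0.52 on average (SE 0.16, adjusted p 0.221, and 0.0577 with the block). Irgm1, another regulator of that kind, stood at 3.53, 3.03 and 2.93 against 3.14, 2.78 and 2.82, with overlapping groups and a difference of -0.25 (SE 0.22, adjusted p 0.849). The second probe of Irgm1 gave -0.58. Gbp6 had -0.44 (SE 0.28, adjusted p 0.702).

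Isg15 encodes the ubiquitin-like protein that is conjugated to targets in interferon-treated cells, and it stood at 4.01, 3.81 and 3.53 in Eomes-negative and 3.94, 3.85 and 3.77 in Eomes-positive cells. The groups overlapped, and the difference of 0.07 (SE 0.17, adjusted p 0.98) had a 95% interval of -0.36 to 0.49. Trim25, a ubiquitin ligase that acts on RIG-I, stood at 4.59, 4.56 and 4.51 against 4.58, 4.46 and 4.39. Its difference of -0.07 (SE 0.13, adjusted p 0.966) was negative in all 3 sorts but turned to 0.024 when arrays were scaled to their medians. The second probe of Trim25 gave -0.28, with -0.32, -0.27 and -0.26 in the sorts. Trim21, a ubiquitin ligase and cytosolic antibody receptor, stood at 2.13, 1.63 and 1.69 against 2.08, 1.88 and 1.89, a difference of 0.13 (SE 0.19, adjusted p 0.947). Usp18, which removes Isg15 from proteins and dampens signalling at Ifnar2, had 0.27 (SE 0.25, adjusted p 0.861). None of the 4 tested members of this role was called, and 0 had an unadjusted limma p under 0.05. Trim30a, which RefSeq gives as the current symbol for the synonym Trim30, differed by 0.29 (SE 0.22, limma adjusted p 0.785), outside the counts.

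The PARP, apoptosis and chaperone genes had differences from -0.01 to 0.19. Rtp4, a chaperone of membrane receptors, stood at 4.73, 4.33 and 3.96 in Eomes-negative and 4.65, 4.43 and 4.04 in Eomes-positive cells. Its difference was 0.03 (SE 0.27, adjusted p 0.997), against a fall of the sort means from 4.69 in sort 1 to 4.00 in sort 3. Parp14, an ADP-ribosyltransferase, stood at 3.35, 2.83 and 3.15 against 3.51, 3.11 and 3.29, a difference of 0.19 (SE 0.20, adjusted p 0.897). Xaf1, a partner of the apoptosis inhibitor XIAP, stood at 3.10, 2.79 and 2.47 against 3.06, 2.76 and 2.49. On this probe its groups coincided within sorts, with a difference of -0.01 (SE 0.24) whose sign changed with the scaling. The dimmer second probe of Xaf1 gave -0.45, with -0.62, -0.20 and -0.53 in the sorts. Parp9, which acts with a partner ubiquitin ligase in DNA repair and interferon signalling, had 0.01 (SE 0.22), also of unstable sign. None of these 4 genes was called, and 0 had an unadjusted limma p under 0.05.

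Bst2, or tetherin, holds budding virus at the cell surface, and it stood at 4.59, 4.62 and 4.82 in Eomes-negative and 4.00, 4.18 and 4.36 in Eomes-positive cells. The arrays did not overlap, and the difference was -0.50 (SE 0.16), which did not pass the test (limma adjusted p 0.256, and 0.0576 with the sort as a block). Bst2 is also a surface marker of mouse plasmacytoid dendritic cells. The 8 markers of these cells on the array, of which 6 to 8 were detected on each, summed to 73.3 to 98.1 in Eomes-negative and 50.1 to 78.7 in Eomes-positive cells. Of the 7 tested markers, 1 was called between the groups, Ccr9 (difference -4.23, limma adjusted p 0.015), with the Eomes-positive arrays lower. The brightest marker, Siglech, differed by 0.01 (adjusted p 0.997). Of the other tested markers, Pacsin1 and Ly6d differed by -0.10 and -1.04. Tcf4, Lefty1 and Cox6a2 differed by 0.19, 0.68 and 1.25. The lower sums were thus not shared by all markers of the list. They came mainly from Ccr9, at 4.69, 4.08 and 3.95 in Eomes-negative and 0.39, 0.68 and -1.04 in Eomes-positive cells. The part of such cells in the value of Bst2 was not tested.

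The Ifitm genes, whose small membrane proteins block the fusion of viruses with endosomes, differed between sorts and were not called between groups. Ifitm1 stood at -3.84, 1.13 and -2.28 in Eomes-negative and -6.67, 1.20 and -2.03 in Eomes-positive cells, where the array of sort 1 was not well above background. Ifitm2 stood at -3.74, 0.50 and -0.84 against -4.94, 0.24 and -0.26. Ifitm3 stood at -0.38, 3.58 and 1.58 against -0.53, 3.58 and 2.21. In both groups each of the 3 genes was lowest in sort 1 and highest in sort 2.

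The means of the sorts spanned 4.71 on the log2 scale for Ifitm2 and 4.04 for Ifitm3, the last a 16.4-fold range, and ranked 227 and 324 among the spans of the 16413 genes. For Ifitm1 the span was at least 6.40, with the array of sort 1 that was not well above background set to the lowest signal that was, and the 3 Eomes-negative arrays alone spanned 4.97. The limma adjusted p between sorts for Ifitm1, Ifitm2 and Ifitm3 was 0.0296, 0.0165 and 0.00782 (an F test over the sorts with the group in the model, added after the pattern was seen). Between groups, the differences were -0.84 (SE 2.26), -0.29 (SE 1.72) and 0.16 (SE 1.39), with adjusted p of 0.981, 0.996 and 0.997. The signs of all 3 turned in some fits without 1 array. Those fits had no sort block, so leaving out 1 array lets the spread between sorts enter the difference between groups. Blocked by sort, the SE was 0.70, 0.37 and 0.19 and the limma adjusted p 0.49, 0.643 and 0.619. Probes of different Ifitm genes shared runs of at most 6 bases. The scanner files place the second Ifitm1 probe, which gave -1.12, on chromosome 8 and the one used on chromosome 7. Both are 60 bases long and share a run of 54, so their like values are not independent.

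**Figure D3:**
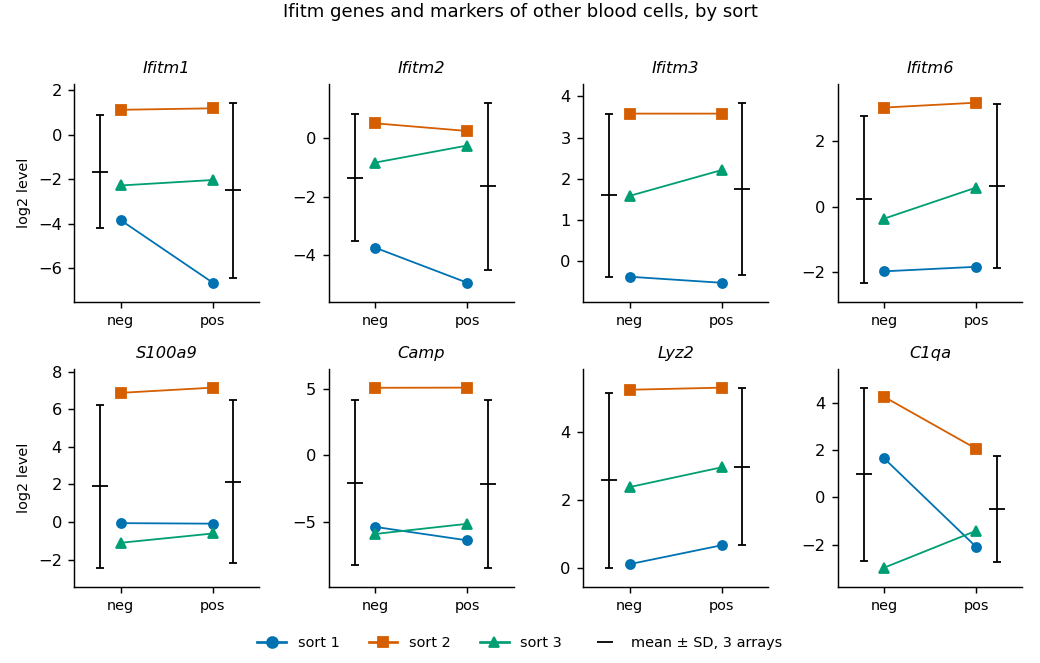
Log2 level on each array of 4 Ifitm genes (top) and of S100a9, Camp, Lyz2 and C1qa, genes of neutrophils and macrophages (bottom), in Eomes-negative (neg) and Eomes-positive (pos) cells. Lines join the arrays of a sort, bars are mean ± SD of 3 arrays, and each panel has its own vertical range; all 8 genes are highest in sort 2 in both groups. Camp was well above background in sort 2 only.

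Markers of other blood cells moved with the sorts as well. The 7 neutrophil markers summed to 1.93, 205 and 1.81 times the 75th percentile in the Eomes-negative arrays of sorts 1, 2 and 3 and to 1.66, 241 and 1.67 in the Eomes-positive arrays. All 7 were detected in sort 2 and 4 in the other sorts; Ngp, Camp and Mpo were not well above background in sorts 1 and 3. The 11 macrophage and monocyte markers on the array summed to 31.5, 176 and 35.7 and to 15.3, 91.7 and 38.5. The 6 red cell and platelet markers summed to 17.7, 163 and 127 and to 18.2, 160 and 208. The 6 conventional dendritic cell markers summed to 5.52, 55.1 and 12.9 and to 3.30, 46.2 and 17.2. The 8 B cell markers summed to 15.9, 19.8 and 24.0 and to 9.56, 13.9 and 19.0. Their sums were highest in sort 3 in both groups and lower in Eomes-positive cells in every sort. Of the 6 B cell markers tested, 0 were called between groups, and Cd79b (-0.92) with the sort as a block only (limma adjusted p 0.0217). The sums of neutrophil, macrophage and dendritic cell markers were highest in sort 2 in both groups. Among the macrophage markers Itgam was highest in sort 3 instead, at 3.13, 3.35 and 4.78 and at 3.30, 3.59 and 4.59. It was the brightest of that list in sort 3. C1qa, C1qb and C1qc were lowest in sort 3 in Eomes-negative and in sort 1 in Eomes-positive cells. The dendritic cell sums had the same order of sorts as the Ifitm genes. Most of each dendritic cell sum came from H2-Ab1 alone, with means of the sorts of 1.99, 5.57 and 3.84. The dimmer Flt3 and Cd209a had that order too, whereas Zbtb46 was lowest in sort 3. Xcr1 and Clec9a were well above background in sort 2 only. The order of these sums is thus mainly that of H2-Ab1. The part of these other blood cells in the Ifitm values was not tested.

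Slide 1 held both arrays of sort 1 and the Eomes-negative array of sort 2, slide 2 the Eomes-positive array of sort 2, and slide 3 both arrays of sort 3. On slide 1, Ifitm3 stood at -0.38 and -0.53 in sort 1 and at 3.58 in sort 2. Sorts 1 and 2 shared an RNA input of 9 ng. Sort 3 differed from the others in age, input and slide at once, and these cannot be told apart.

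Other members also differed between sorts, by less than the Ifitm genes. By the same F test 8 of 37 members (21.6%) were called between sorts, as were 22.8% of all genes, and only the 3 Ifitm genes spanned more than 2 on the log2 scale (6.74% of all genes did). Of the 37, 23 were highest in sort 1 (62.2%, against 37.4% of all genes), among them all 6 GTPases, all 3 IFIT genes and all 4 tested genes of the ISG15 and TRIM group. Without the 3 Ifitm genes the median difference between groups was 0.0088, with -0.06, 0.0038 and 0.02 in the 3 sorts.

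The members can also be divided by the motifs before their start. The 12 tested members with an ISRE core had a median difference of -0.27 (from -0.59 to 0.72), with 4 higher and 8 lower in Eomes-positive cells, and the 14 tested members with a promoter entry and no core had 0.06 (from -1.33 to 0.45), with 8 higher and 6 lower. Isg20 is among the latter. Members with a GAS motif, 7 in number, ran from -1.33 to 0.45 with a median of -0.42, against -0.01 for the 19 without. These are descriptions of few genes each, and their ranges overlap over most of their length.

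Upstream of the members, 36 genes of the interferon pathway were listed, of which 30 were on the array and 27 tested. In limma 1 was called higher in Eomes-positive cells, Il10rb, and 2 lower, Ifngr2 and Socs3 (1.2% and 1.57% of all genes). With the sort as a block the counts were 3 and 3 (3.66% and 4.33% of all genes), adding Ifng and Ifna5 (higher) and Socs1 (lower), which are named because of these calls. The median difference was 0.06, and 20 of the 27 lay within 0.5 on the log2 scale.

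Of the ligands, Ifnb1, Ifna4 and Ifnk were not well above background on any array. Ifng, the gene of interferon-γ, stood at 0.27, 0.06 and 0.31 in Eomes-negative and 1.01, 0.59 and 1.15 in Eomes-positive cells. Its groups did not overlap, with a difference of 0.70 (SE 0.19, limma adjusted p 0.185, and 0.0393 with the sort as a block). Ifna5 was well above background on 2 of 3 arrays of each group, and its difference was 0.74 (SE 0.59, adjusted p 0.811, and 0.0328 with the block).

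The receptors differed chain by chain. Ifngr2, the signalling chain of the interferon-γ receptor, stood at 0.89, 1.04 and 0.78 in Eomes-negative and -2.80, -0.94 and -2.60 in Eomes-positive cells. Each Eomes-positive array was far below its partner, and the difference was -3.01 (SE 0.51, limma adjusted p 0.0442, and 0.0263 with the sort as a block). Ifngr1, the ligand-binding chain, stood at 5.52, 5.72 and 5.84 against 5.65, 5.57 and 5.85, with overlapping groups and a difference of -0.0052 (SE 0.16, 95% interval -0.39 to 0.38). Ifnar1 stood at 1.36, 1.26 and 0.86 against 1.38, 1.12 and 1.19, a difference of 0.07 (SE 0.19, adjusted p 0.98). Ifnar2 stood at 1.74, 1.94 and 1.80 against 2.24, 2.28 and 2.46, higher in all 3 sorts without overlap. Its difference of 0.50 (SE 0.14) did not pass the test (adjusted p 0.193, and 0.0774 with the sort as a block). Il10rb, a chain shared by the receptors of IL-10, IL-22 and the type III interferons, stood at 1.79, 1.80 and 1.95 against 2.89, 2.80 and 3.17, with a difference of 1.10 (SE 0.16, adjusted p 0.0262).

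The kinase, STAT and IRF genes showed no call. Stat2 stood at 1.48, 1.10 and 1.01 in Eomes-negative and 1.37, 1.03 and 0.87 in Eomes-positive cells, a difference of -0.11 (SE 0.21, limma adjusted p 0.968). Irf9 differed by -0.05 (SE 0.17, adjusted p 0.99). Irf7, which amplifies the type I response, stood at 1.06, 0.43 and 1.76 against 0.80, 0.32 and 1.32, lower in all 3 sorts but by less than the spread between them (difference -0.27, SE 0.42, adjusted p 0.961). None of the 11 kinases, STATs and IRFs was called, and 0 had an unadjusted limma p under 0.05.

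Of the feedback inhibitors of JAK kinases, Socs3 was called lower in Eomes-positive cells, and Socs1 with the block only. Socs3 stood at 3.18, 3.03 and 3.76 in Eomes-negative and 1.30, 1.29 and 1.79 in Eomes-positive cells. All 3 differences lay close together (SD 0.12), with a mean of -1.87 (SE 0.26, limma adjusted p 0.0252). Socs1, the main brake on interferon-γ signalling, stood at 2.33, 2.40 and 2.83 against 1.52, 1.32 and 2.19, again without overlap, with a difference of -0.85 (SE 0.28) and an adjusted p of 0.279, or 0.0374 with the sort as a block. The inhibitors Pias1, Ptpn2, Ptpn6 and Irf2 were not called.

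The calls on Il10rb, Ifngr2 and Socs3 were lost when any 1 sort was left out (limma adjusted p up to 0.337, 0.403 and 0.325), though the differences stayed at 1.00 to 1.18, -3.60 to -2.67 and -2.03 to -1.65 over all fits without a sort or an array. Leaving out single arrays ended them too, apart from that on Ifngr2 without the Eomes-positive array of sort 2 (adjusted p 0.0089). Limma called 0 genes of the whole array without sort 1 or sort 2, so the loss there is not particular to these genes.

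**Figure D4:**
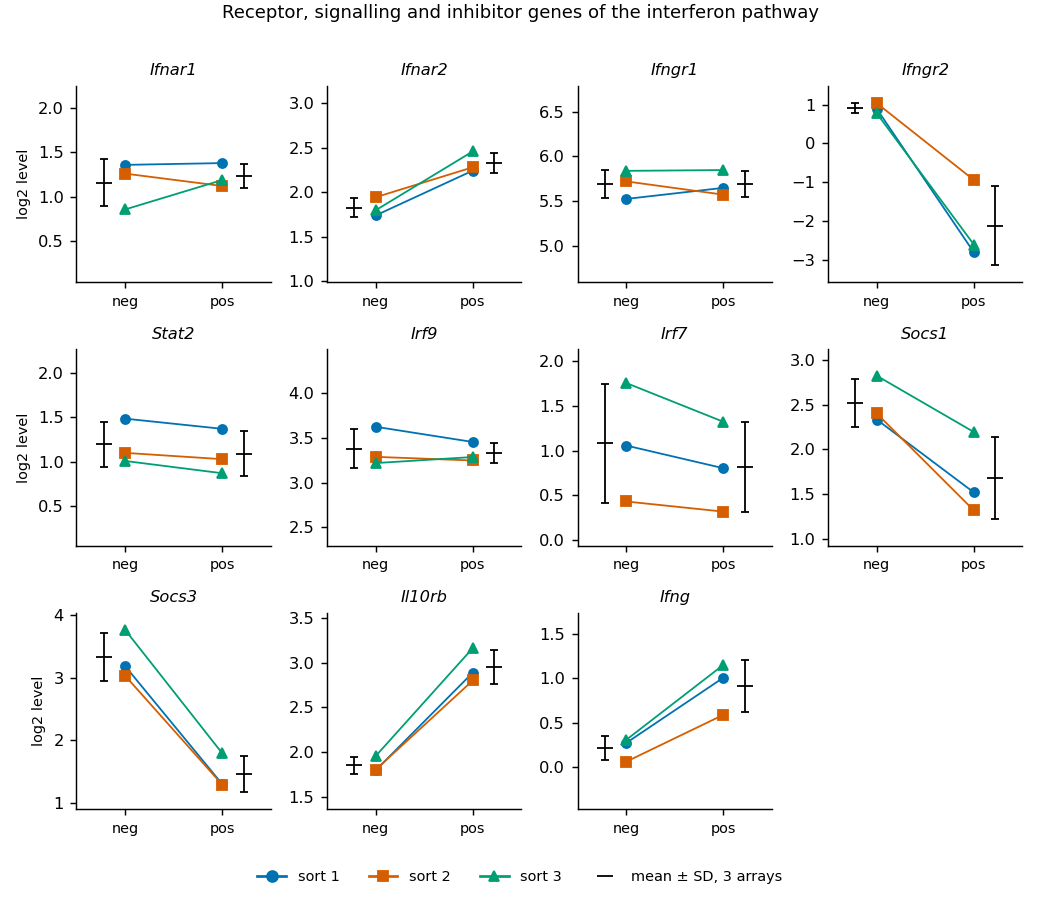
Log2 level on each array of 11 genes of the interferon pathway, in Eomes-negative (neg) and Eomes-positive (pos) cells: receptor chains, signalling genes, inhibitors, Il10rb and Ifng. Lines join the arrays of a sort, bars are mean ± SD of 3 arrays, and each panel has its own vertical range; Ifngr2 and Socs3 are lower and Il10rb higher in each sort, while Ifngr1, Stat2 and Irf9 overlap between the groups.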

How the data were processed

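Total RNA of 6 samples was hybridised to one-colour Agilent arrays. Per the file headers, the deposited intensity of each spot is background-subtracted and detrended but not normalized between arrays (Agilent Feature Extraction 10.7.3.1), and the other columns used are 0 or 1 flags from the same program; probe positions are in mm9. The authors also deposited linear intensity values per probe, with 75th percentiles of 1497 to 1506 and medians of 58 to 77. On each array these differed from the scanner values by one constant (interquartile range of the log2 offset at most 0.0067), and how they were scaled is not given in the sources used here.

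The log2 intensities of a probe's spots were averaged, leaving out outlier spots, and each array's 75th percentile was subtracted. A probe counted as well above background where at least 50% of its spots were. RefSeq accessions named 27502 probes. Genes well above background on at least 3 arrays were fitted with limma 3.58.1 (R 4.3.3 with the data.table package, version 1.17.8), with group only, and p-values were Benjamini-Hochberg adjusted over all 16413 genes at a threshold of 0.05. The code was tested on simulated data. Intervals are 95%. The number of arrays limits the precision, and p-values measure the spread between 3 pools. In the fit with group only, the SE, interval and p-value also hold the level differences between sorts that both groups share. Where these are large the SE is wider than with the sort as a block, as for Oas1a (0.35 against 0.09).

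Deviations from the group means correlated at 0.81 to 0.82 within a sort, and the labels call the sorts independent, so the numbers pair the arrays. Between sorts the correlations were -0.57 to -0.26. The 3 deviations of a group cancel out, which by itself pushes these values below 0. Alternatives were the sort or slide as a block, an intensity trend, median scaling, quantile normalization, normexp (offset 50) with quantile normalization, the authors' deposited values, other filters, the mean of all probes, and leaving out sorts or arrays. The members, lists, promoter motifs and tests were chosen with earlier results of these data known. By rule, values on every array are given for members called with or without the block and the 3 brightest of each role, and for named receptors, STATs and IRFs; pathway genes are named where called, and 1 gene of the pathway list is not reported here. Oas2, Ifitm1, Socs1, Ifng and Ifna5 were added after their values were seen, as was the F test between sorts. The same holds for the single cell type markers named, such as Ccr9, Klre1 and Klrb1c. Of the 16 members with several probes, 14 had more than 1 probe well above background on at least 3 arrays. In each of the 14 the probes had the same sign, but not always a like size, as for Xaf1 (-0.01 and -0.45) and Ddx58 (0.01 and 0.55). The Ifitm1 probes share most of their sequence. Figures used Python 3.11.15, pandas 2.3.3 and matplotlib 3.10.9.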

Additional observations from a re-analysis of the deposited data

How the results depend on the processing

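Of 701 values (37 members, up to 19 other settings), 640 kept their sign and side of the threshold, 10 lost a call, 4 gained one and 47 changed sign. With the sort as a block (replicate block), 1 member was called higher and 2 lower; with the slide as a block, 2 lower; with normexp and quantile normalization together, 1 higher. Quantile normalization and no filter left 0 called lower. Without a sort or an array, 0 were called higher and 0 to 1 lower. The median difference of the members was 0.11 with median scaling (0.09 over all genes), -0.11 with the mean of all probes, and -0.085 to 0.071 without a sort or an array. The sign held in all settings run for 21 members, Isg20, Iigp1, Gbp3, Igtp, Gbp2, Bst2, Zbp1 and Samhd1 among them, and changed for 16, all uncalled.

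Sign changes came with the slide block for Ifitm3 (-0.95), Parp9 (-0.0080), Xaf1 (0.080), Ifngr1 (0.019) and Irf9 (0.028), with median scaling for Trim25 (0.024), Xaf1 (0.086), Ifngr1 (0.093) and Irf9 (0.050), with quantile normalization for Xaf1 (0.023) and Ifngr1 (0.019), and with normexp and quantile normalization together for Xaf1 (0.010) and Ifngr1 (0.019). Parp9 gave -0.0016 in the authors' deposited values and -0.16 as the mean of all probes.

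Without a sort or an array, the ranges that crossed 0 were -0.067 to 0.23 for Adar, -0.092 to 0.17 for Ddx58, -0.035 to 0.34 for Dhx58, -0.45 to 0.14 for Ifit1, -2.69 to 1.25 for Ifitm1, -1.48 to 1.35 for Ifitm2, -0.83 to 1.30 for Ifitm3, -0.061 to 0.18 for Isg15, -0.23 to 0.50 for Mx1, -0.16 to 0.51 for Mx2, -0.028 to 0.48 for Oas1a, -0.44 to 0.037 for Oasl2, -0.17 to 0.16 for Parp9, -0.16 to 0.23 for Rtp4 and -0.17 to 0.15 for Xaf1. In the pathway they were -0.080 to 0.17 for Ifnar1, -0.091 to 0.067 for Ifngr1, -0.25 to 0.035 for Stat2, -0.13 to 0.076 for Irf9 and -0.59 to 0.071 for Irf7. The fits without 1 array had no sort block and left 1 sort unpaired, so these ranges also hold the spread between sorts.

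Without sort 1 or sort 2, limma called 0 genes of the whole array in either direction (1354 and 1267 had an unadjusted p under 0.05), and without sort 3 it called 41 higher and 28 lower, so the loss of single calls there also follows from fewer arrays. Signal limits Oas1g, Oas2 and Ifitm1, which were not well above background on 1 or more arrays.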

Other observations

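A further 45 interferon-inducible genes outside the 39 were listed, of which 42 were on the array and 40 tested. In limma 0 were called in either direction, and 5 had an unadjusted p under 0.05 (4 lower, 1 higher in Eomes-positive cells), which is 12.5% against 12.2% of all genes. In the fit blocked by sort, 0 were called higher and 3 lower (4.33% of all genes were): Cxcl10, Tgtp1 and Tgtp2, named here after their values were seen. In all 3 sorts 18 of the 40 were lower (45%, against 27.1% of all genes) and 11 higher (27.5%, against 25.3%).

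Cxcl10, a chemokine that attracts activated T cells, stood at -1.13, -1.29 and -1.0 in Eomes-negative and -2.12, -2.16 and -1.67 in Eomes-positive cells. Its difference was -0.85 (SE 0.19, limma adjusted p 0.102, and 0.0271 when blocked by sort). The IRG GTPase Tgtp2 stood at 6.62, 6.30 and 6.41 against 5.83, 5.21 and 5.39, a difference of -0.96 (SE 0.21, adjusted p 0.0938, and 0.0208 with the block). Its near-identical neighbour Tgtp1 had -1.25 (SE 0.40, adjusted p 0.254, and 0.0133 with the block), and hybridisation may not separate the pair. Aim2, a sensor of cytosolic DNA, was the 1 gene higher with an unadjusted p under 0.05, at -2.09, -2.51 and -2.43 against -1.68, -1.28 and -1.28 (difference 0.93, SE 0.20, adjusted p 0.0872). The immunoproteasome subunits Psmb8, Psmb9 and Psmb10 differed by -0.14, -0.10 and -0.01.

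Ifitm6 spanned 4.99 on the log2 scale between the sorts (limma adjusted p 0.0066), in the same order of sorts as Ifitm1, Ifitm2 and Ifitm3. Other genes of the list had their highest mean in sort 3: Slfn5 (span 2.07, adjusted p between sorts 0.0099), Sp100 (1.72, 0.0184) and Lgals9 (1.39, 0.0307).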
